A study of Mus musculus with 6 samples.

Results

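The pyruvate dehydrogenase complex, the kinases and phosphatase that switch it, and the carrier that feeds it were followed through 10 genes: the kinases Pdk1, Pdk2, Pdk3 and Pdk4, the phosphatase Pdp1, the subunits Pdha1, Pdhb and Dlat, and the carrier subunits Mpc1 and Mpc2. They were taken by symbol from a table of 23238 distinct symbols; each stood on a single row, and all 10 passed the filter on low counts that left 11674 genes. Gastrocnemius, a mostly fast muscle of the calf, came from wild-type C57/BL6J mice aged 26 months. The 3 farnesol libraries came from mice given farnesol by mouth at 350 mg/kg for 30 days, and the 3 vehicle libraries from mice given 5% DMSO in saline over the same time. Farnesol is a fatty isoprenoid alcohol. RNA was counted as reads per gene from a 3′ end kit, in whole muscle, where fewer cells of a type and less RNA per cell cannot be told apart.

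Pyruvate made by glycolysis enters the mitochondrion through a carrier built of Mpc1 and Mpc2, and the complex turns it into acetyl-CoA for the tricarboxylic acid cycle. Pdha1 and Pdhb form the E1 enzyme that decarboxylates pyruvate, and Dlat is the E2 enzyme that passes the acetyl group to coenzyme A. Kinases phosphorylate serines of Pdha1 and shut the complex down, and phosphatases such as Pdp1 remove the phosphate and turn it on again. In skeletal muscle Pdk2 and Pdk4 are the best known kinases, and Pdk4 is induced by fasting, fatty acids and glucocorticoids, which spares glucose.

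No member differed past the threshold of an adjusted p of 0.05 between farnesol and vehicle muscle, and each of the 10 had an edgeR adjusted p of 0.99999. The largest fold was that of the scarce kinase Pdk3, 2.24-fold as abundant after farnesol with a 95% interval of 0.733 to 6.84 (n = 3 and 3). Among the other 9 members no log2 fold change exceeded 0.215 in size. The E1 subunit Pdha1, the E2 enzyme Dlat and Pdk3 were each higher in every farnesol library than in every vehicle library, by 1.11-fold, 1.15-fold and 2.24-fold; of all genes 8.82% had groups that did not overlap, and with library totals in place of TMM scaling Pdk3 alone of the 3 kept separated groups. Pdk4 varied more between vehicle libraries than between the group means: its highest vehicle library held 4.09 times as much as the lowest.

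Libraries held 10231046, 12707751 and 9895700 counts in farnesol replicates 1 to 3 and 11058539, 10931849 and 10354759 counts in vehicle replicates 1 to 3, of which the 10 members took 12071 to 16291 in farnesol and 12249 to 14440 in vehicle libraries. Levels are CPM, the count as a share of the library times a fixed constant, on library sizes scaled by edgeR's TMM factors, with the SD over 3 libraries. All 11 fast fibre markers were counted in every library, with summed levels of 169100 to 181700 CPM in farnesol and 134300 to 198000 CPM in vehicle muscle. Slow fibre markers summed to 1918 to 2946 CPM after farnesol and 1509 to 2151 CPM after vehicle. By fitted sign 9 of 11 fast and 8 of 9 slow fibre markers were higher after farnesol. Adipocyte markers, without Car3, which muscle fibres express as well, summed to 355 to 532 CPM after farnesol and 246 to 446 CPM after vehicle, with all 10 markers, Car3 included, higher by fitted sign. Red cell markers summed to 5472 to 9725 CPM after farnesol and 3500 to 5683 CPM after vehicle, with 5 of 6 higher. Macrophage markers summed to 116 to 152 CPM in farnesol and 89.7 to 224 CPM in vehicle libraries, and endothelial markers to 112 to 142 CPM in farnesol and 111 to 158 CPM in vehicle libraries. By fitted sign 7 of 8 macrophage and 4 of 7 endothelial markers were lower after farnesol. Every marker of these 6 lists had a count in each library, and their part in the results was not tested. Farnesol replicate 1 stood apart in the share of the ribosomal RNA precursor Rn45s, at 4.97% of counts against 9.92% to 15.4% in the other 5 libraries. Vehicle replicate 3 held the lowest fast fibre sum, 134300 CPM, and the highest macrophage sum, 224 CPM. The TMM factors were 1.111, 0.9414 and 0.9806 in farnesol replicates 1 to 3 and 0.9445, 0.9051 and 1.141 in vehicle replicates 1 to 3.

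**Figure D1:**
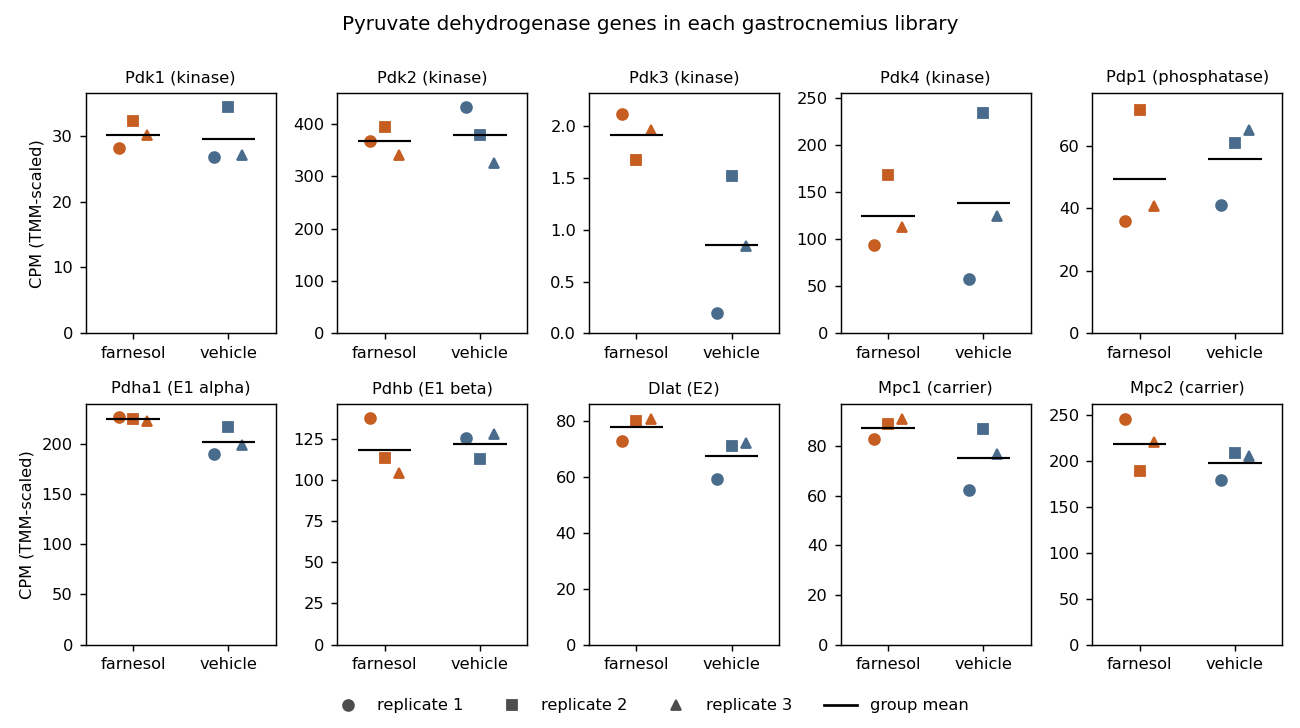
Level of each of the 10 genes in CPM (y axis, linear, from 0) in the 3 farnesol and the 3 vehicle libraries. Marker shapes give the replicate number, which names a library and was not used as a pairing in the main fit, and bars are group means. Pdha1, Dlat and Pdk3 have separated groups, while Pdk4 runs from 57.3 to 234 CPM within the vehicle group.

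Pdk2 was the most abundant kinase transcript, and it was steady. Pdk2 (Entrez 18604; chromosome 11, 95026258 to 95041371, minus strand, mm10) stood at 368, 394 and 340 CPM in the farnesol libraries, against 432, 379 and 325 CPM in the vehicle libraries. The vehicle libraries held both the highest and the lowest value. edgeR gave a log2 fold change of −0.043 (SE 0.15; fold at 95% confidence 0.781 to 1.21).

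Pdk4 (Entrez 27273; chromosome 6, 5483351 to 5496278, minus strand), the kinase raised by fasting, stood at 93.4, 168 and 112 CPM after farnesol, against 57.3, 234 and 125 CPM after vehicle. Vehicle libraries held both the lowest and the highest value, with all farnesol values between them. The averages were 125 ± 38.6 CPM after farnesol and 139 ± 89.2 CPM after vehicle (SD, n = 3 each), a log2 fold change of −0.15 (SE 0.58; fold at 95% confidence 0.315 to 2.56). Counting error was small beside this spread: vehicle replicate 1 held 598 Pdk4 reads, with an exact Poisson 95% interval of 551 to 648, and vehicle replicate 2 held 2314, with an interval of 2220 to 2410. Within groups the SD of log2 CPM was 0.78 for Pdk4, higher than in 99.5% of the 6231 genes with a mean of at least 10 CPM, whose median was 0.23; for Pdk2 it was 0.16. The sign turned without vehicle replicate 2, at 0.45, and without farnesol replicate 1, at 0.015, while without vehicle replicate 1 the log2 fold change of Pdk4 was −0.53.

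The sequences just upstream of the start sites of Pdk4 and Pdk2 are shown because these 2 genes hold most of the kinase counts and differed in how steady they were between libraries. Whether the sequence bears on that difference was not tested. They are the 250 bases before the RefSeq start on GRCm38.p6, for Pdk2 the outermost of 2 starts in the promoter table, 5′ to 3′ on the minus strand, at chr6:5496279-5496528 for Pdk4 and chr11:95041372-95041621 for Pdk2. Capitals mark matches, on either strand, to 5 motifs searched by their letters: the CCAAT box CCAAT, the E-box CACGTG, the nuclear receptor half-site AGGTCA, the FoxO site TGTTTAC and the glucocorticoid receptor half-site AGAACA.
Pdk4: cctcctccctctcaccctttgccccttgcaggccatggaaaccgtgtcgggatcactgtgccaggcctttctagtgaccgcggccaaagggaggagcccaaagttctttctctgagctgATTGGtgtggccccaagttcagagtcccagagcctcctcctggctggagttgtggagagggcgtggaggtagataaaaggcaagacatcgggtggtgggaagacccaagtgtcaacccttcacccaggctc
Pdk2: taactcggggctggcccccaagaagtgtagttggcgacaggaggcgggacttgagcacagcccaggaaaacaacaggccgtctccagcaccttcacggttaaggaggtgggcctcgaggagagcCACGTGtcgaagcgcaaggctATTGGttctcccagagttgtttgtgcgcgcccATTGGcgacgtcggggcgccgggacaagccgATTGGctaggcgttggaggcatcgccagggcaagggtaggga
The Pdk4 window held 1 CCAAT box, and the Pdk2 window held 3 CCAAT boxes and 1 E-box, with every CCAAT box on the other strand, where it reads ATTGG; no match overlapped another. Of the 32851 windows of the same length in the RefSeq promoter table, 33.8% held a CCAAT box, 6.02% the E-box, 14.0% the nuclear receptor half-site, 3.17% the FoxO site and 16.1% the glucocorticoid receptor half-site. The last 3 have no match in these 250 letters of either gene, which says nothing of sites elsewhere. The window before the inner Pdk2 start, at position 95040875, held no match to any of the 5 motifs.

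Pdk1 (Entrez 228026; chromosome 2, 71873215 to 71903858, plus strand), a kinase known as a target of hypoxia signalling, was measured at 28.1, 32.3 and 30.1 CPM in farnesol and 26.8, 34.4 and 27.1 CPM in vehicle libraries. The vehicle group spanned the farnesol group. The fitted log2 fold change was 0.036 (SE 0.19; fold at 95% confidence 0.776 to 1.35).

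Pdk3 (Entrez 236900; chromosome X, 93764616 to 93832150, minus strand), the scarcest kinase here, was counted 24, 20 and 19 times in the farnesol libraries and 2, 15 and 10 times in the vehicle libraries. That is 2.12, 1.67 and 1.96 CPM after farnesol, against 0.192, 1.52 and 0.847 CPM after vehicle. Every farnesol library was above every vehicle library, but the closest pair differed by little: 20 reads in farnesol replicate 2 carry an exact Poisson 95% interval of 12.2 to 30.9, and 15 reads in vehicle replicate 2 an interval of 8.40 to 24.7. The log2 fold change was 1.16 (SE 0.78; edgeR adjusted p = 0.99999, unadjusted 0.149), with 0.70 without vehicle replicate 1, the library with 2 reads, and 1.84 without vehicle replicate 2.

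As shares of all kinase counts, which need no scaling between libraries, Pdk2 made up 74.8%, 66.1% and 70.2% in the farnesol libraries and 83.7%, 58.4% and 68.1% in the vehicle libraries. Pdk4 made up 19.0%, 28.2% and 23.2% after farnesol, against 11.1%, 36.1% and 26.1% after vehicle. The farnesol shares of both lay inside the range of the vehicle shares. The mean share of Pdk4 was 23.5 ± 4.58% after farnesol and 24.4 ± 12.6% after vehicle (SD, n = 3 each), and the difference of −0.972 percentage points ran from −7.63 without vehicle replicate 1 to 4.85 without vehicle replicate 2. In single libraries the Wilson 95% interval of this share was 18.0% to 20.1% in farnesol replicate 1, and 10.3% to 12.0% in vehicle replicate 1, counting error only. Pdk1 held 5.42% to 6.21% in farnesol and 5.20% to 5.68% in vehicle libraries. Pdk3 held 0.281% to 0.430% in farnesol and 0.0371% to 0.234% in vehicle libraries.

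**Figure D2:**
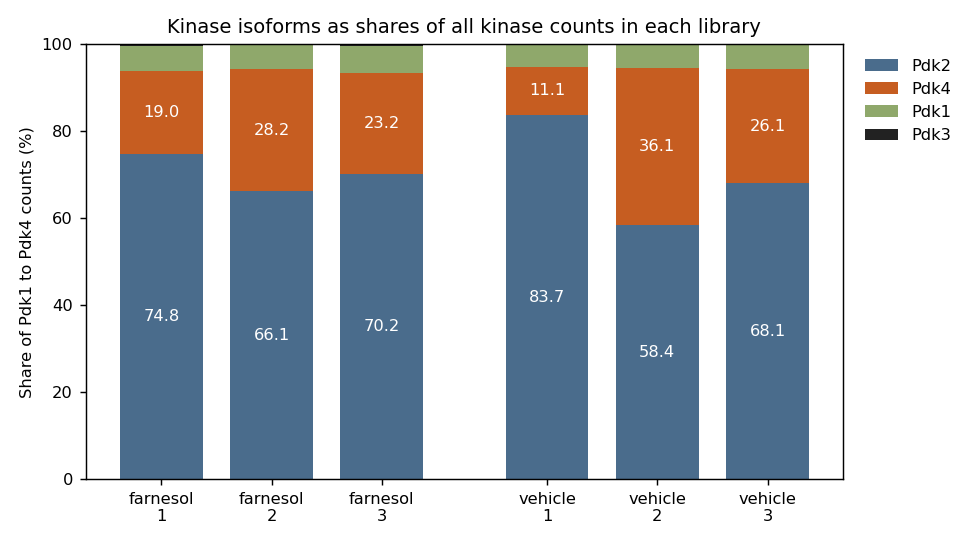
Share of each kinase in the summed counts of Pdk1 to Pdk4 (y axis, percent) in each farnesol and vehicle library (x axis); white figures give the shares of Pdk2 and Pdk4. Pdk2 is the largest share in each library, and within the vehicle group Pdk4 runs from 11.1% to 36.1%, with the farnesol libraries between.

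Pdp1 (Entrez 381511; chromosome 4, 11958183 to 11966450, minus strand), the catalytic subunit of the phosphatase that reactivates the complex, stood at 35.9, 71.5 and 40.8 CPM after farnesol and 41.2, 60.8 and 65.2 CPM after vehicle. Farnesol replicate 2 was the highest of all 6 libraries, while the other 2 farnesol libraries were the lowest. The log2 fold change was −0.17 (SE 0.24; fold at 95% confidence 0.621 to 1.27). Without farnesol replicate 2 it was −0.54 (unadjusted p = 0.0239; it did not pass over all genes), and without farnesol replicate 1 it was 0.011. Pdp1 was the second least steady member above 10 CPM, with a within-group SD of log2 CPM above 92.3% of genes of that level.

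Pdha1 (Entrez 18597; chromosome X, 160122219 to 160138430, minus strand), the E1 subunit that the kinases phosphorylate, stood at 226, 224 and 222 CPM in farnesol libraries, against 190, 217 and 199 CPM in vehicle libraries. The farnesol values were nearly the same as each other and all above the highest vehicle value, a separation that was lost with library totals. The averages were 224 ± 1.89 CPM after farnesol and 202 ± 13.7 CPM after vehicle (SD, n = 3 each), a log2 fold change of 0.15 (SE 0.14; fold at 95% confidence 0.906 to 1.37). Its within-group SD was lower than that of all but 1.52% of genes of at least 10 CPM. The last exon of Pdha1 shares 603 exonic bases with Map3k15 on the opposite strand, a kinase gene that stood at 64.4, 55.7 and 55.0 CPM after farnesol and 47.7, 51.3 and 62.5 CPM after vehicle. Whether reads were assigned by strand is not given, so reads of the 2 genes in this stretch may not be separated. The germ cell paralog Pdha2 had 0 counts in each library, which allows up to 3 counts.

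Pdhb (Entrez 68263; chromosome 14, 8165991 to 8173303, minus strand), the partner of Pdha1 in E1, stood at 137, 114 and 104 CPM after farnesol and 126, 113 and 128 CPM after vehicle. The farnesol group spanned the vehicle group, with farnesol replicate 1 highest. The log2 fold change was −0.043 (SE 0.16; fold at 95% confidence 0.776 to 1.21), and it was −0.16 without farnesol replicate 1. Per Pdhb count there were 1.65, 1.98 and 2.13 Pdha1 counts in the farnesol libraries, against 1.51, 1.92 and 1.56 in the vehicle libraries. These within-library ratios, which no scaling affects, overlapped between the groups.

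Dlat (Entrez 235339; chromosome 9, 50634633 to 50659780, minus strand), the E2 acetyltransferase that forms the core of the complex, stood at 72.9, 80.1 and 80.9 CPM after farnesol and 59.2, 71.2 and 72.3 CPM after vehicle. The groups were separated by less than 1 CPM between farnesol replicate 1 and vehicle replicate 3, and overlapped with library totals. The averages were 78.0 ± 4.41 CPM after farnesol and 67.6 ± 7.25 CPM after vehicle (SD, n = 3 each), a log2 fold change of 0.21 (SE 0.16; fold at 95% confidence 0.918 to 1.45), and 0.12 without vehicle replicate 1. Pdha1, Pdhb and Dlat together summed to 437, 418 and 408 CPM after farnesol and 375, 401 and 399 CPM after vehicle. Per Pdha1 count there were 0.322, 0.357 and 0.364 Dlat counts after farnesol and 0.312, 0.329 and 0.364 after vehicle, so these subunits kept overlapping proportions.

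Mpc1 (Entrez 55951; chromosome 17, 8283787 to 8297667, plus strand), a subunit of the pyruvate carrier, stood at 82.8, 88.9 and 90.9 CPM after farnesol and 62.4, 86.8 and 77.0 CPM after vehicle. The groups overlapped only through vehicle replicate 2. The log2 fold change was 0.22 (SE 0.16; fold at 95% confidence 0.918 to 1.47), and it was 0.095 without vehicle replicate 1. Mpc1 has an annotated processed pseudogene, Mpc1-ps, with which reads could be shared, and it shares 480 exonic bases with 4930506C21Rik on the opposite strand, which had 9 to 43 counts per library.

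Mpc2 (Entrez 70456; chromosome 1, 165461260 to 165481218, plus strand), the partner of Mpc1, stood at 246, 189 and 221 CPM after farnesol and 180, 209 and 205 CPM after vehicle. Farnesol replicate 1 was the highest library and farnesol replicate 2 the lowest but 1. The log2 fold change was 0.15 (SE 0.15; fold at 95% confidence 0.890 to 1.38), and it was 0.052 without farnesol replicate 1. Per Mpc2 count there were 0.336, 0.469 and 0.411 Mpc1 counts after farnesol and 0.347, 0.416 and 0.375 after vehicle.

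Of the 11674 genes tested by edgeR's quasi-likelihood method 0 (0%) were called at that threshold, as were 0 of the 10 members. DESeq2 and limma-voom called 0 genes too. An exact permutation test of 1 gene, 3 libraries against 3, cannot go below p = 0.1. An unadjusted p under 0.05 was reached by 351 genes (3.01%) and by 0 members. Among the members, 3 of 10 had groups that did not overlap, against 8.82% of all genes; all 3 were higher after farnesol, where 4.75% of all genes were higher and 4.07% lower without overlap. With library totals in place of TMM factors 1 of 10 members, Pdk3, had separated groups, against 6.70% of all genes, so the separation of Pdha1 and Dlat held under TMM and RLE scaling and not under totals. Without farnesol replicate 1 it was 4 of 10, Mpc1 added, against 17.8% of all genes. It was 5 of 10 without farnesol replicate 2, against 19% of all genes, with Pdp1 and Mpc2 added. It was also 5 of 10 without vehicle replicate 2, against 19.4%, with Pdk1 and Mpc1 added. It stayed at 3 of 10 without farnesol replicate 3, vehicle replicate 1 or vehicle replicate 3, against 18.2%, 18% and 18.5% of all genes. By fitted sign 6 members were higher and 4 lower, against 49.1% of all genes higher, and the median log2 fold change was 0.09 for the members and −0.006 for all genes. The members' median was 0.20 without vehicle replicate 2, and 0.037 over the 9 members left by a minimum mean of 5 CPM, which removes Pdk3.

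**Figure D3:**
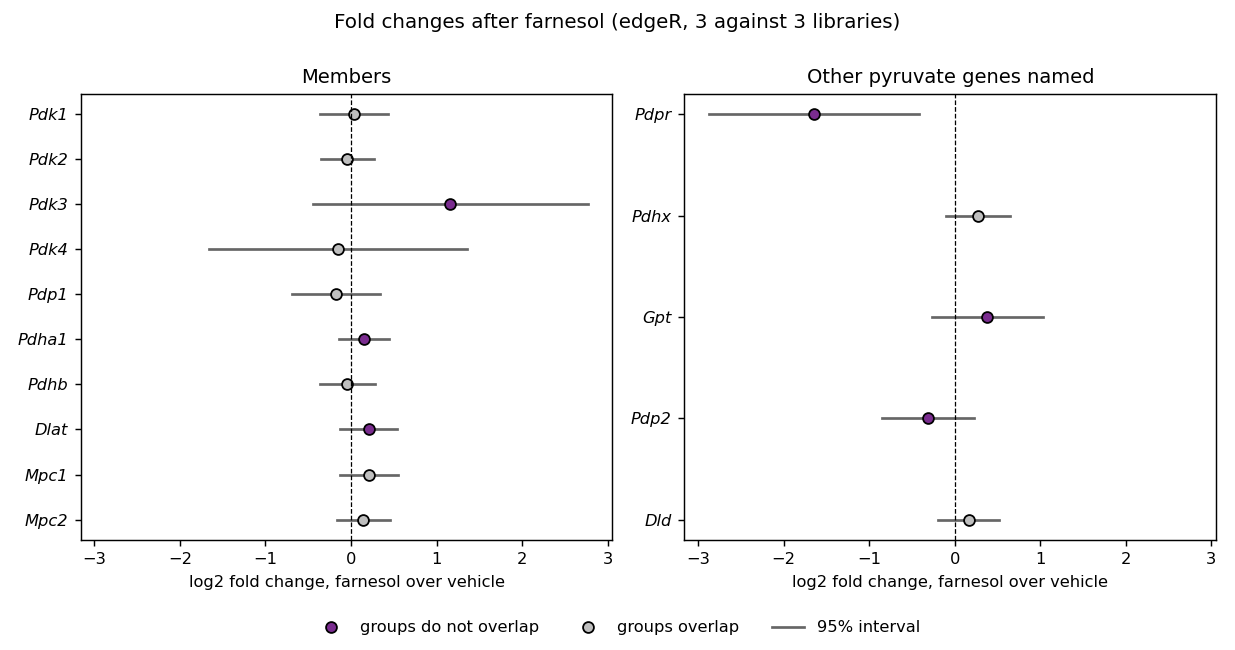
Log2 fold change of farnesol over vehicle (x axis) with its 95% interval for the 10 members (left) and for the 5 other pyruvate genes named in the text, ordered by unadjusted p (right); purple points have groups that do not overlap. Intervals of all 10 members include 0, and Pdk3 and Pdk4 have the widest of them.

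Levels were compared between genes per kilobase of the longest annotated transcript, with the reservation that 3′ end counts are by design not multiplied by length. On that scale the order in farnesol libraries was Pdk2 at 164 ± 11.9 CPM per kilobase, Mpc1 at 91.1 ± 4.42, Pdha1 at 78.8 ± 0.662, Mpc2 at 54.5 ± 7.08 and Pdhb at 49.9 ± 7.18 (SD, n = 3 each). Pdk4 at 35.8 ± 11.1, Dlat at 19.3 ± 1.09, Pdp1 at 11.8 ± 4.60, Pdk1 at 5.82 ± 0.404 and Pdk3 at 0.906 ± 0.106 CPM per kilobase followed. The vehicle libraries gave the same order, with Pdk2 at 169 ± 23.7, Mpc1 at 78.5 ± 12.8, Pdha1 at 70.8 ± 4.81, Mpc2 at 49.3 ± 3.95, Pdhb at 51.4 ± 3.37, Pdk4 at 39.8 ± 25.6, Dlat at 16.8 ± 1.80, Pdp1 at 13.3 ± 3.04, Pdk1 at 5.68 ± 0.827 and Pdk3 at 0.403 ± 0.314 CPM per kilobase, except that Pdhb and Mpc2 changed places. The SD ranges of neighbours overlapped for Mpc2 and Pdhb in both groups, for Pdhb and Pdk4 in the farnesol group, and for Mpc1 and Pdha1, Mpc2 and Pdk4, Pdk4 and Dlat, and Dlat and Pdp1 in the vehicle group. The place of Mpc1 rests on the division by its short transcript of 0.961 kilobases. On the CPM scale, with no division, it averaged 87.5 CPM after farnesol and 75.4 CPM after vehicle, below Pdk2, Pdha1, Mpc2, Pdk4 and Pdhb in both groups.

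Of 20 other genes of the complex and of pyruvate use, 18 could be tested and 0 passed over all genes; 13 were higher and 5 lower after farnesol, with a median log2 fold change of 0.08. The lowest unadjusted p belonged to Pdpr, the regulatory subunit of the pyruvate dehydrogenase phosphatase, and it was the 1 gene of this list under 0.05. Pdpr was counted 15, 9 and 11 times in the farnesol libraries and 43, 36 and 28 times in the vehicle libraries. Every farnesol library was below every vehicle library. Its level was 1.07 ± 0.290 CPM after farnesol and 3.38 ± 0.904 CPM after vehicle (SD, n = 3 each), or 0.319-fold (95% interval 0.136 to 0.746; log2 fold change −1.65, SE 0.59). It did not pass over all genes (edgeR adjusted p = 0.99999, unadjusted 0.0107). With 1 library left out the log2 fold change stayed between −1.85 and −1.45. Pdp2, the second catalytic phosphatase, which the naming rule did not pick and which was added after its values were seen, stood at 9.25, 11.6 and 9.60 CPM after farnesol and 12.5, 13.4 and 12.0 CPM after vehicle. Pdp2 too had separated groups (log2 fold change −0.31, SE 0.26). Among the 18 genes tested here, 2 were lower without overlap, Pdpr and Pdp2, and 1 was higher, Gpt. Over all genes 4.07% were lower and 4.75% higher without overlap. Pdp1, the catalytic phosphatase among the members, had overlapping groups. Whether the phosphatase genes changed together was not tested.

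Other subunits of the complex overlapped between the groups. Pdhx, which anchors the E3 enzyme to the core, stood at 69.2, 49.1 and 58.6 CPM after farnesol and 40.2, 52.8 and 53.3 CPM after vehicle (log2 fold change 0.27, SE 0.18). Dld, the E3 enzyme shared with related complexes, named here for that role outside the rule, stood at 64.2, 52.6 and 70.4 CPM after farnesol and 48.1, 60.9 and 57.8 CPM after vehicle (0.17, SE 0.17). Gpt, an alanine aminotransferase that makes pyruvate, stood at 8.46, 8.37 and 8.46 CPM after farnesol and 6.42, 4.96 and 7.97 CPM after vehicle, separated groups at a log2 fold change of 0.38 (SE 0.32).

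Regulators known to act on Pdk4, or tied to it, gave 7 higher and 5 lower of 12 tested, 0 of them past the threshold. Separated groups were seen in 0 of the 12, against 8.82% of all genes. Esrrg, an oestrogen-related receptor, had a log2 fold change of 0.39 (SE 0.26), the glucocorticoid receptor gene Nr3c1 of −0.28 (SE 0.19), the coactivator gene Ppargc1b of 0.14 (SE 0.19) and the fatty acid receptor gene Ppard of 0.15 (SE 0.26). Single libraries moved these values: Esrrg was 0.22 without vehicle replicate 1, Nr3c1 was −0.051 without vehicle replicate 1, Ppargc1b was 0.024 without vehicle replicate 2 and Ppard was −0.23 without farnesol replicate 1. Genes of the PPAR and fasting response, which can be raised together with Pdk4, numbered 14 higher and 5 lower of 19 tested, with a median of 0.13 and 0 past the threshold. In this list 1 gene was lower without overlap, Txnip, and 1 was higher, Cpt1b, against 4.07% and 4.75% of all genes. Txnip, a brake on glucose uptake, stood at 443, 331 and 416 CPM after farnesol and 469, 475 and 520 CPM after vehicle (log2 fold change −0.30, SE 0.15). Cpt1b, named here outside the rule, stood at 155, 164 and 157 CPM after farnesol and 151, 144 and 142 CPM after vehicle (0.12, SE 0.14). The thioesterase gene Acot1 had a log2 fold change of −1.34 (SE 0.67), Ucp2 of 0.41 (SE 0.36) and Fabp3, the muscle fatty acid binding protein, of 0.53 (SE 0.20). Ucp2 was 0.019 without farnesol replicate 2, and Fabp3 was 0.35 without vehicle replicate 2.

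Genes of the glucocorticoid and FoxO response were 6 higher and 13 lower of 19 tested, with a median of −0.28 and 0 past the threshold. In this list 4 had separated groups, all lower after farnesol, against 4.07% of all genes. The list was chosen with earlier results of these data known, so this count is description only. Whether the separation held with library totals was not tested. Cebpb, a transcription factor induced by glucocorticoids, stood at 37.5, 42.7 and 32.8 CPM after farnesol and 48.6, 47.3 and 47.7 CPM after vehicle (log2 fold change −0.34, SE 0.18). The other 3 were Fbxo32 (−0.61, SE 0.16), Fkbp5 (−0.64, SE 0.21) and Sesn1 (−0.41, SE 0.21). Pdk4, with −0.15 (SE 0.58), did not share this separation.

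**Figure D4:**
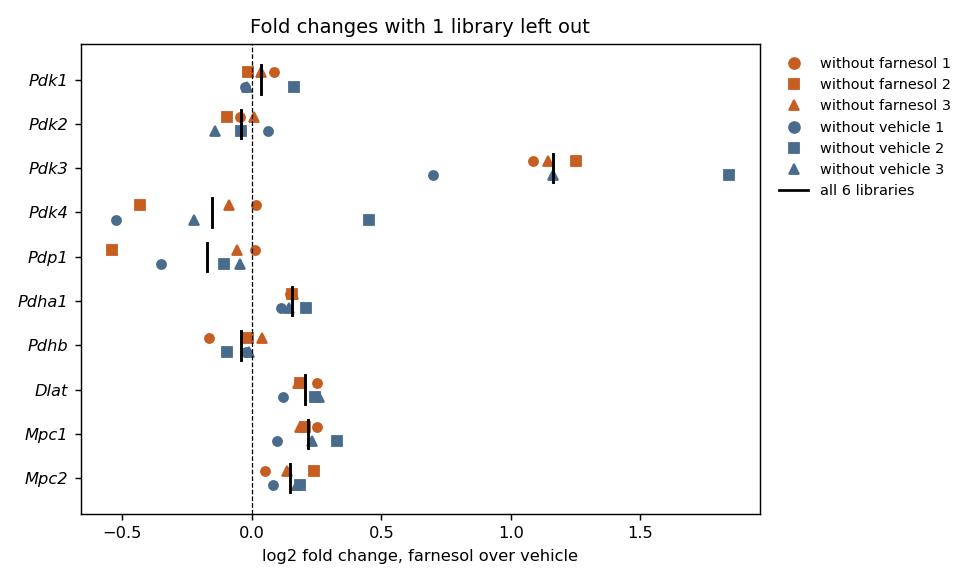
Log2 fold change of farnesol over vehicle (x axis) of each member with 1 library left out (points; orange for a farnesol and blue for a vehicle library left out, shape for its replicate number) and from all 6 libraries (black bars). Pdha1, Dlat, Mpc1, Mpc2 and Pdk3 stay above 0 in all 6 fits, while Pdk4 runs from −0.53 to 0.45.

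The genes whose profile over the 6 libraries lay closest to a member's were found by the root-mean-square distance of mean-centred log2 CPM among genes of at least 10 CPM. For Pdk3, the member with the widest range, they were Commd1 at 0.362, Ctgf at 0.364, Anapc16 at 0.382, Pcp4l1 at 0.412 and Yipf7 at 0.425, where the median gene lay at 0.935 and a flat profile at 0.905. The Pdk3 profile rests on 2 to 24 reads a library, so counting error enters these distances. In vehicle replicate 1 its centred log2 CPM was −1.84, on 2 reads with an exact Poisson 95% interval of 0.242 to 7.22. Each of its neighbours was also lowest in that library, which their choice by closeness to this profile favours. For Pdk4, added after its values were seen, the first 4 were Rsph3a at 0.237, Ppp1r2 at 0.249, Rsph3b at 0.271 and Paip2 at 0.277, where the median gene lay at 0.670 and a flat profile at 0.637. Rsph3a and Rsph3b are close copies whose reads may not be separated. Ppp1r2, a phosphatase inhibitor, stood at 38.3, 48.1 and 40.3 CPM after farnesol and 24.0, 61.3 and 42.9 CPM after vehicle. Both extremes lay in the vehicle group, which its choice by closeness to the Pdk4 profile favours.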

How the data were processed

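Per the labels' protocols, 500 ng of Trizol RNA entered a QuantSeq 3′ end kit. The authors deposited 1 table of raw read counts per library, with 23282 rows and 35 repeated symbols, which were summed here; no row lacked a symbol. The submitters' processing notes name Bowtie2, bedtools and mm10; the sources used here give no versions, annotation, strand setting or rule for reads that match several places. The labels number biological replicates without naming mice, so p-values rest on the spread among these libraries. The column headers of the counts carry sample numbers of their own, with gaps, which were not used as a pairing. No 2 libraries of a group held the same counts within sampling noise: the chi-square per degree of freedom was 14.5 to 91.5. This does not show whether the libraries came from different mice.

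The test was edgeR 4.0.16 in R 4.3.3: filterByExpr, TMM factors, robust quasi-likelihood fit, no block, Benjamini-Hochberg adjustment over 11674 genes and a threshold of 0.05. The SE is the size of the log2 fold change divided by the root of its F statistic, and the t distribution gave 95% intervals. The fit was tested on simulated data. Log2 CPM used a prior count of 2. A count of 0 allows up to 3 counts, 0.236 to 0.303 CPM; intervals on counts cover counting error only. The 14 alternatives were RLE factors, library totals, DESeq2 1.42.0, limma-voom 3.58.1, no filter, a mean of 5 CPM, no Rn45s, a replicate block and each library left out.

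The members and the 11 other gene lists were chosen with earlier results of these data known. Their counts beside shares of all genes are therefore description and not a test. The rule named all members, the 4 genes of lowest unadjusted p in each list that is not of markers, and the 5 genes closest in profile to the member of widest range; 1 gene that it picked, and 1 picked in the same way for Pdk4, are not reported here. Positions are from RefSeq, GRCm38.p6, the build of mm10; transcript lengths and overlaps are from GENCODE vM21. 9 of the 10 members have a RefSeq promoter entry.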

Additional observations from a re-analysis of the deposited data

How the results depend on the processing

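Of the 10 members 0 passed under each of the 14 alternatives. Over all genes the count past the threshold was 13 without the filter, 0 with DESeq2, limma-voom and the other full-set settings, and 0 to 3 with 1 library left out, 3 of them without vehicle replicate 2. With a mean of at least 5 CPM, Pdk3, Pdpr and Acot1 were not tested. With the replicate number as a block, 0 genes passed and the log2 fold change of Pdk4 was 0.015. An unadjusted edgeR p under 0.05 was then reached by 428 genes, against 351 without the block. Deviations of same-numbered libraries, by the replicate numbers of the labels, correlated at 0.0373, 0.0603 and −0.0202 across genes. Those of other pairs correlated at −0.0731 to 0.036. The labels name no pairing, and these weak correlations cannot exclude one. Limma-voom gave 0.031 for Pdk4, and library totals gave 0.024 for Bckdk; the cause was not tested. With 1 library left out, log2 fold changes ran from −0.027 to 0.16 for Pdk1, −0.14 to 0.061 for Pdk2, −0.53 to 0.45 for Pdk4, −0.54 to 0.011 for Pdp1, −0.16 to 0.038 for Pdhb, −0.23 to 0.35 for Ppard, −0.078 to 0.15 for Bckdha and −0.13 to 0.077 for Bckdk. The median of the other pyruvate genes then ran from 0.014, without farnesol replicate 2, to 0.15. The count of members with separated groups, whose alternatives were chosen after seeing the data, was 1 with library totals, against 6.7% of all genes. With 1 library left out it was 3 to 5, against 17.8% to 19.4% of all genes, where all 6 libraries gave 8.82%. It was 5 without farnesol replicate 2 or vehicle replicate 2. Depth limits Pdk3 and Pdpr, with at most 24 and 43 counts a library.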

Other observations

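The sister complexes that oxidise 2-oxoglutarate and branched-chain oxoacids, built on the same plan as pyruvate dehydrogenase, were nearly level between the groups. Of 8 genes 7 were tested, with 3 higher, 4 lower, a median log2 fold change of −0.0053 and 0 with separated groups. Ppm1k, the phosphatase of the branched-chain complex, had a log2 fold change of 0.23 (SE 0.25), Dlst, the E2 enzyme of the 2-oxoglutarate complex, of −0.074 (SE 0.15), Bckdha, the E1 alpha subunit of the branched-chain complex, of 0.022 (SE 0.21) and Bckdk, its kinase and a relative of the Pdk kinases, of −0.015 (SE 0.17). Without farnesol replicate 2 Ppm1k was 0.063 and Dlst −0.013, and without vehicle replicate 2 Ppm1k was 0.45. Bckdk stood at 63.3, 50.8 and 49.9 CPM after farnesol and 62.2, 54.2 and 49.4 CPM after vehicle.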
